A study of Mus musculus with 4 samples.

Results

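Mtf2, Phf1 and Phf19 are the Polycomb-like genes of the mouse, and their transcript levels were examined in embryonic stem (ES) cells in which Mtf2 was targeted by RNA interference (RNAi). Members were all array features whose annotated gene symbol is Mtf2, Phf1 or Phf19, which gave 6 of the 45220 features: 4 for Mtf2, 1 for Phf1 and 1 for Phf19. The cells were of the mouse ES line E14. They had been transfected by lipofection with an RNAi plasmid, placed in puromycin (1 mg/ml, as the labels give it) 1 day later and collected after 2 days of selection. The Mtf2 RNAi arm held 1 array of cells with the pSuper-Mtf2-RNAi-1 plasmid (hairpin 1) and 1 of cells with the pSuper-Mtf2-RNAi-3 plasmid (hairpin 3). The control arm held 1 array of cells with a pSuper hairpin against luciferase, which mouse cells do not make, and 1 of cells with the empty pSuper vector. pSuper drives a short hairpin RNA from an RNA polymerase III promoter. All 4 arrays therefore share the vector backbone and the transfection and selection protocol. The design text calls the 4 plasmids independent experiments, and whether they were transfected side by side is not stated. No plasmid has a second array here, so the spread between arrays of an arm mixes plasmid with array and may be technical.

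Polycomb-like proteins are accessory subunits of PRC2, the Polycomb complex whose H3K27me3 mark lies over silenced developmental genes. Each carries a Tudor domain, which in human PHF1 and PHF19 binds the H3K36me3 mark, and a region that contacts unmethylated CpG-rich DNA, through which PRC2 is brought to CpG islands. Mtf2, also named Pcl2, is the best studied of the family in mouse ES cells. Phf1, also named Pcl1, and Phf19, also named Pcl3, occupy the same place in PRC2.

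The start region of the targeted gene and that of the Phf1 paralog are shown because CpG pairs are what this family recognises and because the annotated start of Mtf2 is CpG-rich. The sequences are those of RefSeq on the build GRCm38.p6, read 5′ to 3′ on the plus strand, limited to the bases before the annotated gene, with each CG pair in capitals. The Mtf2 stretch lies at chr5:108065424-108065659 and the Phf1 stretch at chr17:26932877-26933126.
Mtf2: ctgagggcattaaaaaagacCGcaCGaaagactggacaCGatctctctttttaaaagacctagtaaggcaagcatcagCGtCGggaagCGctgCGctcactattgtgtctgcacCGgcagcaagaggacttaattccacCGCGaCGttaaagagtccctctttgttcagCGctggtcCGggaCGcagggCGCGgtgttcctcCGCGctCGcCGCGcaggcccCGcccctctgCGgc
Phf1: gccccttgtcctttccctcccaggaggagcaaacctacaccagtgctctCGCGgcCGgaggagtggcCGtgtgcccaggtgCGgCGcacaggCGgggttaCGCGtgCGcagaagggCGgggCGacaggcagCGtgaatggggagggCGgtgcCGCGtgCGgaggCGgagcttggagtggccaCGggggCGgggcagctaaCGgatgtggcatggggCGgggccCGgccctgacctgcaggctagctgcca

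The letters CG, which read the same on both strands, were counted in the 250 bases before each RefSeq start. The main Mtf2 window and the Phf1 window each held 23 CG pairs, a number reached or passed by 13.3% of the 32851 windows of that length. The Phf19 window, which lies inside the annotated span of that gene, held 31, reached by 5.2% of windows. A second RefSeq start inside Mtf2 held 2, against a median of 6 over all windows. Their relation to the array values was not tested.

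The deposited values are intensities on a linear scale with the background already subtracted. Array scaling set every 75th percentile to 22.98 units, readings under 1 unit were raised to that floor, and log2 was taken. Of the 45220 features, 35102 were above the floor on at least 1 array and were tested, all 6 members among them. Markers of ES cells fitted the label: 10 of the 11 measured (12 were listed) read above the 75th percentile on all 4 arrays, and Lin28a, the lowest, did not. Summed over the list the ES cell markers gave 11276 and 11421 units with Mtf2 hairpins 1 and 3, against 9397 with the empty vector and 8643 with luciferase. Klf4 was the largest part of that gap (2342 and 3630 units with the hairpins, against 1121 and 1837 with the empty vector and luciferase). Nanog was also higher with both hairpins (553 and 386, against 350 and 186). Esrrb (308 and 294, against 338 and 397) and Utf1 (28.7 and 43.1, against 48.2 and 44.4) went the other way. The other measured ES cell markers overlapped between the arms. None of 8 fibroblast or feeder markers passed that percentile on every array. Their sums were 29.2 and 29.3 units with Mtf2 RNAi and 35.0 and 36.1 units in controls, and Twist2 was at the floor throughout. The 6 endoderm markers summed to 13.7 to 15.9 units on the 4 arrays and the 4 trophoblast markers to 19.7 to 23.3. No endoderm or trophoblast marker passed the 75th percentile on every array. The 5 neural markers summed to 128 to 154 units, and 2 of them, Tubb3 and Nes, passed it on every array. The part of these differences in the results below was not tested.

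The empty-vector array read low along 1 edge. Feature numbers were taken to run in rows of 85, and a position counted as defective if the surrounding 7 by 7 block of features had a median more than 0.5 log2 from the 4-array median. Low positions of this kind numbered 1 on the hairpin 1 array, 2 on the hairpin 3 array, 1644 on the empty-vector array and 0 on the luciferase array, and 1638 of those on the empty-vector array lay in columns 70 to 85. The Phf1 feature was in column 78, where the neighbours on the empty-vector array were 2.31 log2 below the median of the 4 arrays. Feature 23882 of Mtf2 was in column 82, but its neighbours deviated by only -0.23. The other 4 members lay outside these columns, with neighbours between -0.12 and 0.27.

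**Figure D1:**
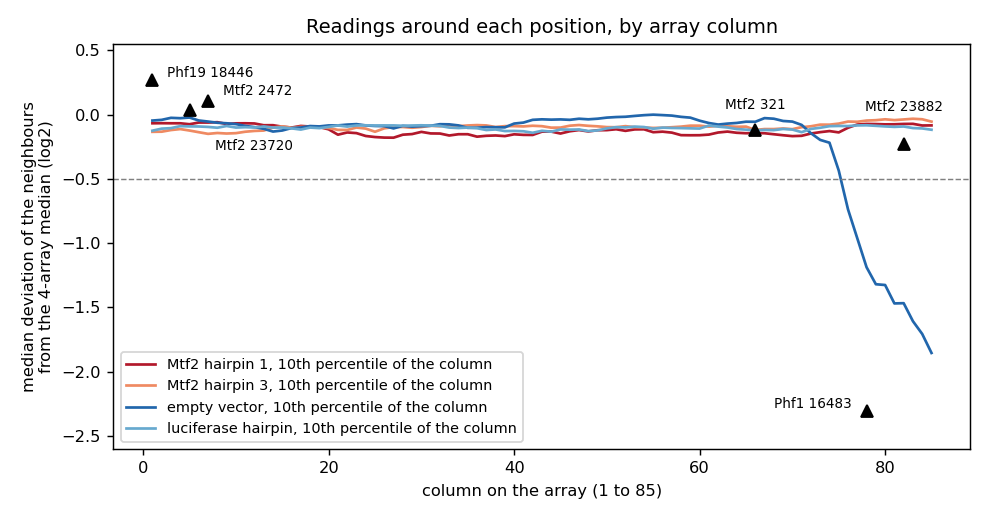
Deviation of the neighbours of each position from the 4-array median (log2, vertical axis) against the column on the array (horizontal axis). Lines give the 10th percentile of the column for each array, triangles the 6 member features on the empty-vector array, and the dashed line the limit for a low position. The empty-vector line drops in the last columns, where the Phf1 feature sits at -2.31, while feature 23882 of Mtf2 in the same band sits at -0.23.

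Mtf2, the gene the hairpins target, read lower with both hairpins on 3 of its 4 features, at 0.474 to 0.583 of the control level. The brightest feature did not follow. Both hairpins were below both controls on 17.5% of all tested features. Over all 4 Mtf2 features the level with Mtf2 RNAi was 0.627 of control. No difference passed the test across all features or all genes. In RNA from a whole culture, less Mtf2 RNA in every cell and fewer cells that hold it cannot be told apart. Because Mtf2 is the target, these values bear on the labels, but with no difference passing the test they cannot verify which plasmid each array carries.

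Feature 23720, annotated through an older GenBank mRNA, read 105 units with hairpin 1 and 112 with hairpin 3, against 216 with the empty vector and 243 with luciferase. Both Mtf2 RNAi arrays were below both controls, and the nearest pair across the arms was 0.95 log2 apart. Each hairpin alone left a similar level here, 0.459 of control with hairpin 1 and 0.489 with hairpin 3. The other 3 features share 1 RefSeq transcript as their annotation.

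Feature 2472 read 192 units with hairpin 1 and 191 with hairpin 3, against 305 with the empty vector and 354 with luciferase. The hairpins were 0.003 log2 apart, closer than the controls at 0.21, and the arms did not overlap. The difference of the arms was -0.78 log2 (SE 0.22), with a 95% interval of -1.34 to -0.22 before any adjustment.

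Feature 23882 read 52.0 units with hairpin 1 and 89.8 with hairpin 3, against 144 with the empty vector and 135 with luciferase. The arms did not overlap, and the hairpins were the more distant pair: hairpin 3 read 0.79 log2 above hairpin 1, while luciferase read 0.10 below the empty vector. Relative to control, hairpin 1 left 0.374 and hairpin 3 left 0.646. The reading with hairpin 3 was thus nearer to control on this feature, whereas features 2472 and 23720 put the hairpins within 0.10 log2 of each other.

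Feature 321, the brightest, read 501 units with hairpin 1 and 335 with hairpin 3, against 175 with the empty vector and 737 with luciferase. The controls were 2.08 log2 apart and enclosed both hairpins, so the arms overlapped. Against luciferase alone hairpin 1 read -0.56 and hairpin 3 -1.14 log2, while against the empty vector they read +1.52 and +0.94. The neighbours of this feature on the empty-vector array deviated by -0.12, so the low reading there was not shared by the positions around it. Without the empty-vector array the difference was -0.85 log2, in the direction of the other 3 features.

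**Figure D2:**
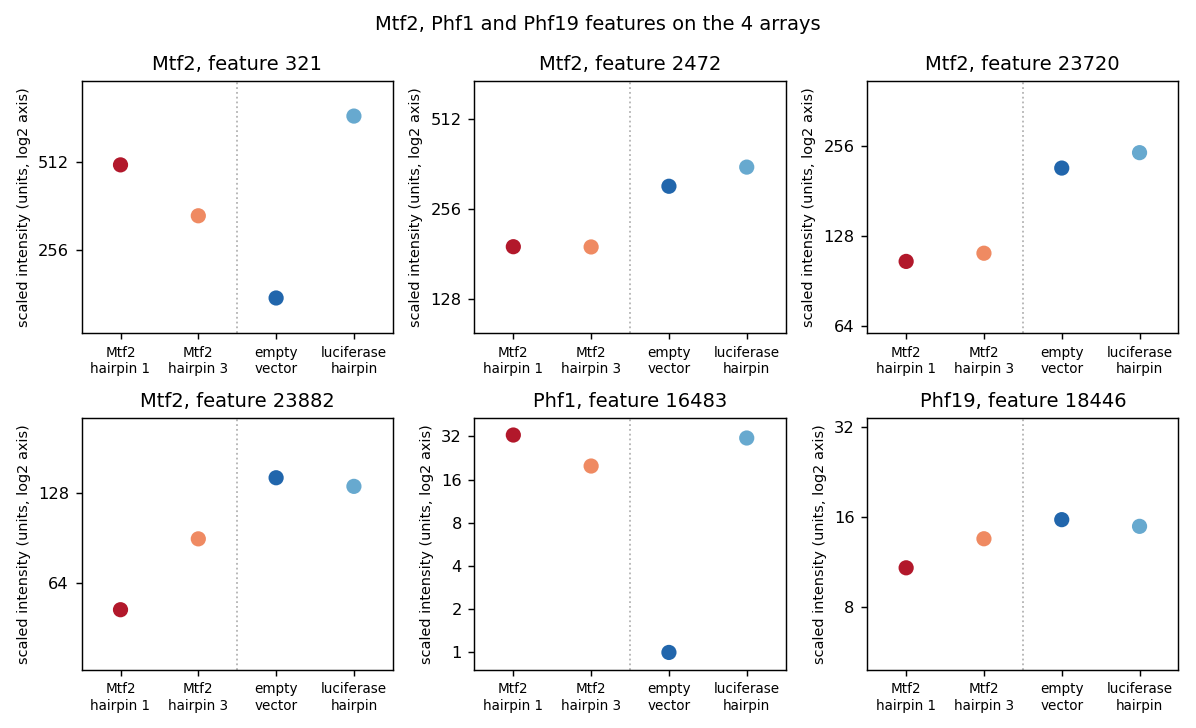
Scaled intensity (units, log2 axis) of each member feature on each array, 1 point per array, with the 2 Mtf2 hairpins left of the dotted line and the 2 controls right of it. Axis ranges differ between panels. Features 2472, 23720 and 23882 of Mtf2 have both hairpins below both controls, feature 321 and Phf1 have the empty vector lowest (Phf1 at the floor of 1 unit), and Phf19 spans 10.9 to 15.7 units.

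To set these differences against the spread between arrays, single arrays were compared over 5738 features of 64 to 1000 units at sound positions. As each array carries its own plasmid, this spread mixes plasmid with array. The median absolute difference between a Mtf2 hairpin array and a control array was 0.28 to 0.33 log2, and the 90th percentile 0.75 to 0.88. On feature 23720 all 4 hairpin-minus-control differences, from -1.21 to -0.95, were beyond that 90th percentile. Such differences reuse the same readings in pairs, so they are not separate comparisons. On feature 2472 they ran from -0.89 to -0.67 and on feature 23882 from -1.47 to -0.58, partly within it. The gap of 0.79 between the hairpins on feature 23882 was just past the 90th percentile of 0.75 for the 2 hairpin arrays.

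In the test across features (limma with Benjamini-Hochberg adjustment) the threshold of 0.05 was passed by 0 of 35102 features (0%), and 1467 had an unadjusted p under 0.05. Feature 23720 had the lowest difference of the 6 members at -1.08 log2 (SE 0.21, interval -1.62 to -0.53), and feature 23882 read -1.02 (SE 0.32, interval -1.85 to -0.20). The limma adjusted p was 0.868 for features 2472, 23720 and 23882. Feature 321 stood at 0.19 (SE 0.71, interval -1.62 to 2.00) with a limma adjusted p of 0.954. Of the 4 Mtf2 features, 3 had both hairpins below both controls, as did 17.5% of all tested features and 18.1% of the 11123 features above the 75th percentile, where all 4 Mtf2 features lie. A difference of at least 1 log2 in that direction as well was held by 2 of the 4, against 0.476% of those bright features. Among the 446 genes with 4 tested features, 5 (1.12%) had at least 3 features with the hairpins below the controls. These were Mtf2, Xpo5, Zfp148, Ints7 and Fnip1, named after their values were seen, and Mtf2 had the lowest gene mean difference of the 5, followed by Xpo5 at -0.58. Their features share a gene and, for Mtf2, a target, so they are not independent.

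Averaged over its 4 features on each array, Mtf2 gave a geometric mean of 151 units with hairpin 1 and 159 with hairpin 3, against 202 with the empty vector and 304 with luciferase. The order from low to high was hairpin 1, hairpin 3, empty vector and luciferase, at 7.24, 7.32, 7.66 and 8.25 log2. The 2 hairpins were 0.07 log2 apart, but this averages opposite gaps. Hairpin 3 minus hairpin 1 was -0.58 on feature 321 and 0.79 on feature 23882. The controls lay further apart than hairpin 3 and the empty vector, the nearest arrays across the arms. The arms did not overlap, which held for 17.9% of the 16764 genes in this direction. The difference was -0.67 log2 (SE 0.27, interval -1.36 to 0.01), and the limma adjusted p over all genes was 0.881. The threshold was passed by 0 of the 16764 genes (0%), with 690 at an unadjusted p under 0.05. Without feature 321, left out after its values were seen, the gene mean was -0.96 (SE 0.21). The differences of the 4 features spanned 1.27 log2, against a median span of 0.79 among the 446 genes with 4 features, of which 23.3% had a span at least as wide.

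**Figure D3:**
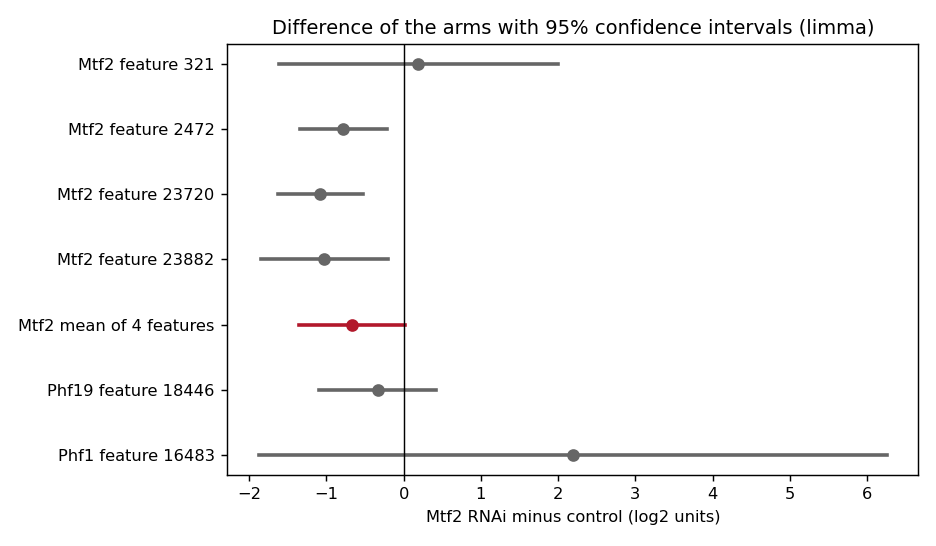
Difference of the arms, Mtf2 RNAi minus control (log2 units, horizontal axis), for each member feature and for the Mtf2 mean of 4 features in red. Points are limma estimates and bars their 95% intervals, not adjusted over features. The intervals of 3 Mtf2 features lie below 0, those of the Mtf2 mean, feature 321, Phf19 and Phf1 include 0, and that of Phf1 is the widest.

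For Phf19 the question was whether a paralog's transcript moved when Mtf2 was targeted. Its feature, number 18446, read 10.9 units with hairpin 1 and 13.6 with hairpin 3, against 15.7 with the empty vector and 14.9 with luciferase. Both hairpins were below both controls, as on 17.5% of all tested features, but hairpin 3 and luciferase were only 0.14 log2 apart. The difference was -0.34 log2, or 0.792 of control (SE 0.30, interval -1.09 to 0.42), with a limma adjusted p of 0.868 over all features. Hairpin 1 gave -0.50 and hairpin 3 -0.18 against the mean of the controls, which both values share. The neighbours of this feature on the empty-vector array, its highest reading, deviated by 0.27. With every array corrected for its neighbours, the difference of the arms was -0.15 log2. Over 3491 features of 8 to 16 units the median absolute difference of a hairpin array from a control array was 0.32 to 0.40 log2, and the 4 pairs for Phf19 (-0.54 to -0.14) stayed under the 90th percentile of 0.82 to 1.08. With an interval on both sides of 0, these arrays show neither a change nor its absence.

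Phf1 was measured on feature 16483, which read 32.6 units with hairpin 1 and 19.9 with hairpin 3, against 31.1 with luciferase and 0.418, under the floor, with the empty vector. Both hairpins and luciferase lay within 0.72 log2 of each other, and the empty-vector array, where the position is defective, stood apart. With that array the difference was 2.19 log2 (SE 1.59, interval -1.88 to 6.26, limma adjusted p = 0.868 over all features), and its size depends on the floor. Without it the difference was -0.29 (SE 0.47), so the sign rests on that 1 array. Against luciferase alone hairpin 1 read 0.07 higher and hairpin 3 read -0.65 log2. Both are within the 90th percentile of such pairs over 6245 features of 16 to 64 units, at 0.78 for hairpin 1 and 0.80 for hairpin 3. No direction is given for Phf1.

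Whether the target and its paralogs changed differently was tested on the difference of log2 gene means within each array. Mtf2 minus Phf19 was 3.80 with hairpin 1 and 3.55 with hairpin 3, against 3.68 with the empty vector and 4.35 with luciferase. Only their change between arms is meaningful, since levels of different features cannot be compared, and it was -0.34 log2 (two-sided exact permutation test over the arrays, p = 0.667). For Mtf2 minus Phf1 the change was -2.86 (exact p = 0.333, the smallest p that 2 arrays against 2 allow) and rested on the Phf1 value of the empty-vector array. Without that array the changes were -0.67 against Phf19 and -0.68 against Phf1, and without luciferase they were -0.003 and -5.05. A different response of the target and either paralog was therefore not resolved.

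**Figure D4:**
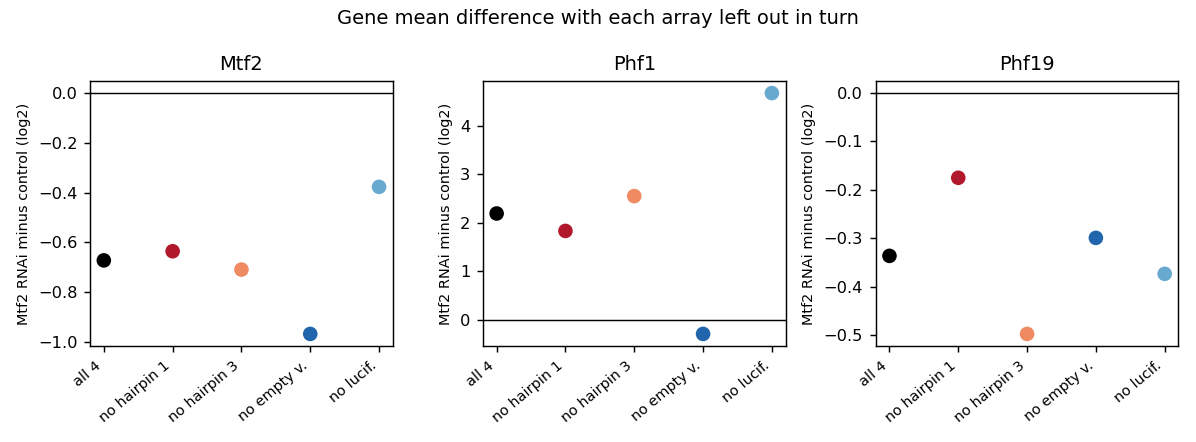
Gene mean difference, Mtf2 RNAi minus control (log2, vertical axes, which differ between panels), with all 4 arrays and with each array left out in turn. Mtf2 stays between -0.97 and -0.38 and Phf19 between -0.50 and -0.18, while Phf1 runs from -0.29 without the empty vector to 4.67 without luciferase.

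The other PRC2 genes, a list of 12 of which 11 were measured, split into 6 above and 5 below 0, with a median difference of 0.04 log2 against -0.002 for all 16764 genes. The median was -0.11 without hairpin 3, 0.13 without hairpin 1, -0.12 without the empty vector and 0.16 without luciferase, so its sign rests on single arrays. None passed the test. In 2 both hairpins were above both controls, a pattern held by 15.1% of all genes, and in 3 they were below, as in 17.9% of genes. The 2 above, Jarid2 and Epop, and 1 of the 3 below, Lcor, are accessory genes, and the other 2 below, Eed and Rbbp4, are core genes. Jarid2, which helps to bring PRC2 to its targets, averaged 307 and 239 units with hairpins 1 and 3, against 197 with the empty vector and 188 with luciferase (0.49 log2, SE 0.23). Of its 2 tested features, one was at 0.84 log2 with separate arms and the other at 0.15 with overlapping arms. Epop, which links PRC2 to elongin, read 1422 and 856 units with the hairpins, against 709 and 731 with the empty vector and luciferase (0.62, SE 0.32). Both were higher with hairpin 1 than with hairpin 3. Lcor, one of the genes that encode PALI proteins, stood at -0.39 (SE 0.31). It was dim, at 5.13 and 3.46 units with hairpins 1 and 3, against 5.75 with the empty vector and 5.30 with luciferase. Both of its tested features had overlapping arms. Its relative Lcorl stood at 0.04 (SE 0.35) and Aebp2, another accessory subunit, at 0.06 (SE 0.27).

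Among core subunits Suz12, the scaffold that the Polycomb-like proteins bind, read 77.0 and 92.6 units with the hairpins, against 89.6 with the empty vector and 100.1 with luciferase (-0.17 log2, SE 0.21), and the arms overlapped. Its 2 features disagreed, each with separate arms: one was at 0.25 log2 and the other at -0.59. Eed, the subunit that reads the H3K27 mark, was at -0.39 (SE 0.28), and Rbbp4, a histone-binding subunit, at -0.33 (SE 0.24), both with the hairpins below the controls. Eed was dim, at 7.77 and 9.66 units with hairpins 1 and 3, against 12.8 with the empty vector and 10.1 with luciferase. Its features ran from -0.70 to -0.22 log2, and only the lowest had separate arms. The features of Rbbp4 ran from -0.58 to 0.16 log2. Ezh2, the catalytic subunit, was at 0.24 (SE 0.44), Ezh1, its alternative, at -0.04 (SE 0.36) and Rbbp7 at 0.43 (SE 0.33), with overlapping arms. Limma adjusted p-values for the 11 genes ran from 0.881 to 0.988.

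The protein-coding genes on either side of each member were measured as a description of the surrounding loci. Beside Mtf2, Dipk1a was at -0.25 log2 (SE 0.32) and Tmed5 at -0.33 (SE 0.22). Tmed5, a p24 family cargo adaptor, read 28.4 and 34.0 units with the hairpins, against 37.2 and 41.3 with the empty vector and luciferase. Beside Phf1, the kinesin gene Kifc5b was at -0.56 (SE 0.86) and Cuta at 0.05 (SE 0.33). Beside Phf19, Cutal was at the floor on every array, and Traf1, an adaptor of tumour necrosis factor receptors, read 7.82 and 15.5 units with the hairpins, against 3.25 and 6.85 with the empty vector and luciferase (1.22 log2, SE 0.52). Without the empty-vector array Dipk1a was at 0.11, Kifc5b at 0.61 and Cuta at -0.21, each with its sign turned, while Tmed5 was at -0.41 and Traf1 at 0.68. None of these passed the test on all 4 arrays, with limma adjusted p of 0.881 or above.

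Gene profiles over the 4 arrays were compared by the root mean square distance of their centred log2 values, among 5153 other genes above the 75th percentile with no feature at a defective position. Closest to the Mtf2 mean were Igbp1 (0.02 log2), Ap4b1 (0.04), Erf (0.05), Atp5j2 (0.06) and Ppfia4 (0.07), each on 1 feature, and 13 genes lay within 0.1. For Phf19 the nearest were Zswim7 (0.02), Sapcd2 (0.02) and Laptm4b (0.03), with 164 genes within 0.1. For Phf1 they were Thoc6 (0.09), Gfus (0.25) and Hscb (0.33), whose features sit in columns 80, 74 and 74 of the array. Their neighbours on the empty-vector array deviated by -0.45, 0 and -0.07 log2, against -2.31 around Phf1. The low readings of Gfus and Hscb there were thus not shared by the positions around them. With 4 arrays and no repeats these distances are descriptions only.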

How the data were processed

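RNA of mouse E14 ES cells was measured on 1-colour arrays. Per the labels' protocols, Trizol was used for extraction and the Agilent Quick-Amp kit for Cy3 labelling of cRNA. The deposited values are linear intensity values per feature. The feature extraction, the background method and any normalization are likewise not given in the sources used, and values down to -1.8 show a background subtraction. Features were named through the platform annotation of 2016, which gives 33653 features 1 gene symbol.

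Scaling brought the arrays to the same 75th percentile, followed by a floor of 1 unit and log2. Features at the floor on all 4 arrays (10118) were left out. The arms were compared with limma 3.58.1 in R 4.3.3 (lmFit, eBayes with an intensity trend), over features and over gene means, with Benjamini-Hochberg adjustment over all of them; the procedure was tested on simulated data. Between 2 controls and 2 hairpins the number of arrays limits the precision. The row length of 85 was checked: features 85 numbers apart correlated with r = 0.28 to 0.29 on 3 arrays and 0.52 on the empty-vector array, and features 532 apart with r = -0.04 to 0.07.

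Named genes were the members, the PRC2 core genes with Jarid2, Aebp2 and Epop, flanking protein-coding genes of a GRCm38.p6 table, and the 5 (Mtf2) or 3 genes nearest in profile. Members and lists were chosen with earlier results of these data known. Alternatives covered scaling, floor, filter, trend, position, gene summary and each array left out. No probe or hairpin sequence was used here.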

Additional observations from a re-analysis of the deposited data

How the results depend on the processing

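No test passed its threshold for the members under any alternative tried. The Mtf2 gene mean was below 0 in 18 of 19 alternatives, from -0.97 log2 without the empty vector to -0.38 without luciferase among the arrays left out. It was 0.19 where the brightest feature, 321, stood for the gene. A floor of 0.5 or 4 units, the filters, the trend and leaving out defective positions could not move the gene mean from -0.67. Part of the count of 18 was therefore fixed in advance. The alternative without feature 321 was added after its values were seen. Leaving out arrays moved feature 321 between -0.85 and 1.23 log2, and Phf1 (feature and gene alike) between -0.29 and 4.67. Phf1 was 1.23 after correction for its neighbours and has no value where defective positions or features under the 75th percentile are left out. Phf19 stayed below 0 in all 17 alternatives that kept it (-0.50 to -0.15), and features 2472, 23720 and 23882 in all 15. The settings that could not move the Mtf2 mean left these values unchanged too, where they were kept. Phf19 has 1 feature, so neither the gene summary nor leaving out feature 321 could move it. These counts therefore say less about consistency than their size. The median of the PRC2 genes was below 0 in 7 of 19 alternatives (-0.12 to 0.24). The number of features passing the threshold was 0 except without the filter on dim features, where it was 36, none of them a member; the cause was not tested. Where an arm is left with 1 array, it is assumed to vary like the other arm. No paired analysis was possible because the labels give the arrays no replicate numbers. Arrays without repeats, 1 per plasmid, limit all of these values.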
